A study of Mus musculus with 43 samples.

Results

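The genes described here are 10 members of the fibroblast growth factor (FGF) pathway, out of 55416 genes counted in each library. They were chosen by name as the 3 receptors with a kinase domain that are best known in glia (Fgfr1, Fgfr2 and Fgfr3), the related receptor without a kinase (Fgfrl1), 3 ligands (Fgf1, Fgf2 and Fgf9) and 3 intracellular inhibitors (Spry1, Spry2 and Spry4), and their rows were read in all 43 libraries. Each library held RNA of 1 glial cell type from the cerebral cortex of 1 mouse 3 months old, and 12 mice formed 6 littermate pairs. Rag2-/- mice lack mature T and B lymphocytes, and the study asked whether glia change when lymphocytes are missing. The line was B6.Cg-Rag2tm1.1Cgn/J crossed with C57BL/6J, a germline knockout, so the glia themselves carried the mutated gene. Controls were immunocompetent littermates of the same colony, Rag2+/- in pairs 1, 2, 3 and 5 and Rag2+/+ in pairs 4 and 6. Astrocytes and microglia came from 6 control and 6 Rag2-/- mice each, OPCs (oligodendrocyte precursor cells) from 6 and 5, and oligodendrocytes from 4 and 4, of pairs 1, 3, 5 and 6. Both sexes were used, and only pair 6 joined a male control to a female Rag2-/- mouse.

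FGF ligands bind receptor tyrosine kinases together with heparan sulfate, and the bound receptors phosphorylate the adaptor Frs2, which recruits Grb2 and Sos and so switches on Ras and the ERK kinases. ERK in turn switches on genes of the Etv family and of inhibitors such as the Sprouty proteins and Dusp6, which damp the same cascade. In the brain, Fgfr3 is known as a gene of astrocytes and their radial precursors, Fgfr2 is prominent in myelinating oligodendrocytes, and Fgf2 is used in culture as a mitogen for OPCs.

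Libraries held 6499417 to 23118497 counts on genes, with a median of 10447042. Levels are given as normalized CPM, which are each gene's share of the library's counts (CPM) after scaling by edgeR's TMM factors over all libraries. Rag2 itself had 0 counts in every Rag2-/- library and 0 to 4 in controls, a level too low to check the labels. The cells were taken by immunopanning, in which antibodies on plates bind CD45 of microglia, PDGFRα of OPCs, GalC of oligodendrocytes and HepaCAM of astrocytes, and markers of other cells remained. As a median over marker genes, the 8 astrocyte markers stood at 12.6% of their own level in OPC libraries, 5.72% in oligodendrocyte libraries and 0.826% in microglia libraries. The 7 oligodendrocyte markers stood at 17.95% in astrocyte libraries and 3.29% in OPC libraries, and the 7 OPC markers at 34.4% in oligodendrocyte libraries and 11.8% in astrocyte libraries. Single OPC markers, which include Olig1, Olig2 and Sox10, ran from 10.3% to 84.25% in oligodendrocyte libraries. How much of such levels is carried-over RNA and how much the cells' own expression was not tested. No marker of these lists was at 0 in a cell type. Libraries of 1 cell type shared a sequencing lane, so lane and cell type cannot be told apart. Total counts in place of TMM rescale all genes of a library alike. The levels shifted by 0.098 to 1.08 log2 units between cell types, in either direction and most between OPCs and oligodendrocytes. In such bulk samples, fewer cells of a type and less RNA per cell cannot be told apart either.

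The 4 cell types carried different sets of FGF genes. Each pair of cell types was compared by edgeR's quasi-likelihood test in a joint fit of all 43 libraries with sex and genotype as terms, and a gene was called at a Benjamini-Hochberg adjusted p under 0.05. Between astrocytes and OPCs, 9 of the 10 genes were called, while 44.2% of all 19209 genes tested were. Between astrocytes and oligodendrocytes 8 were called (51.5% of all genes), between astrocytes and microglia 8 (72%), between OPCs and oligodendrocytes 8 (40.4%), between OPCs and microglia 9 (71.7%), and between oligodendrocytes and microglia 9 (69.7%). Against a stricter threshold, in which edgeR's glmTreat tested for a difference over 2-fold, 5, 5, 8, 7, 9 and 6 genes passed in the same order of comparisons. The shares of all genes there were 16.4%, 23.8%, 45.1%, 12.1%, 45.5% and 44.5%.

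**Figure D1:**
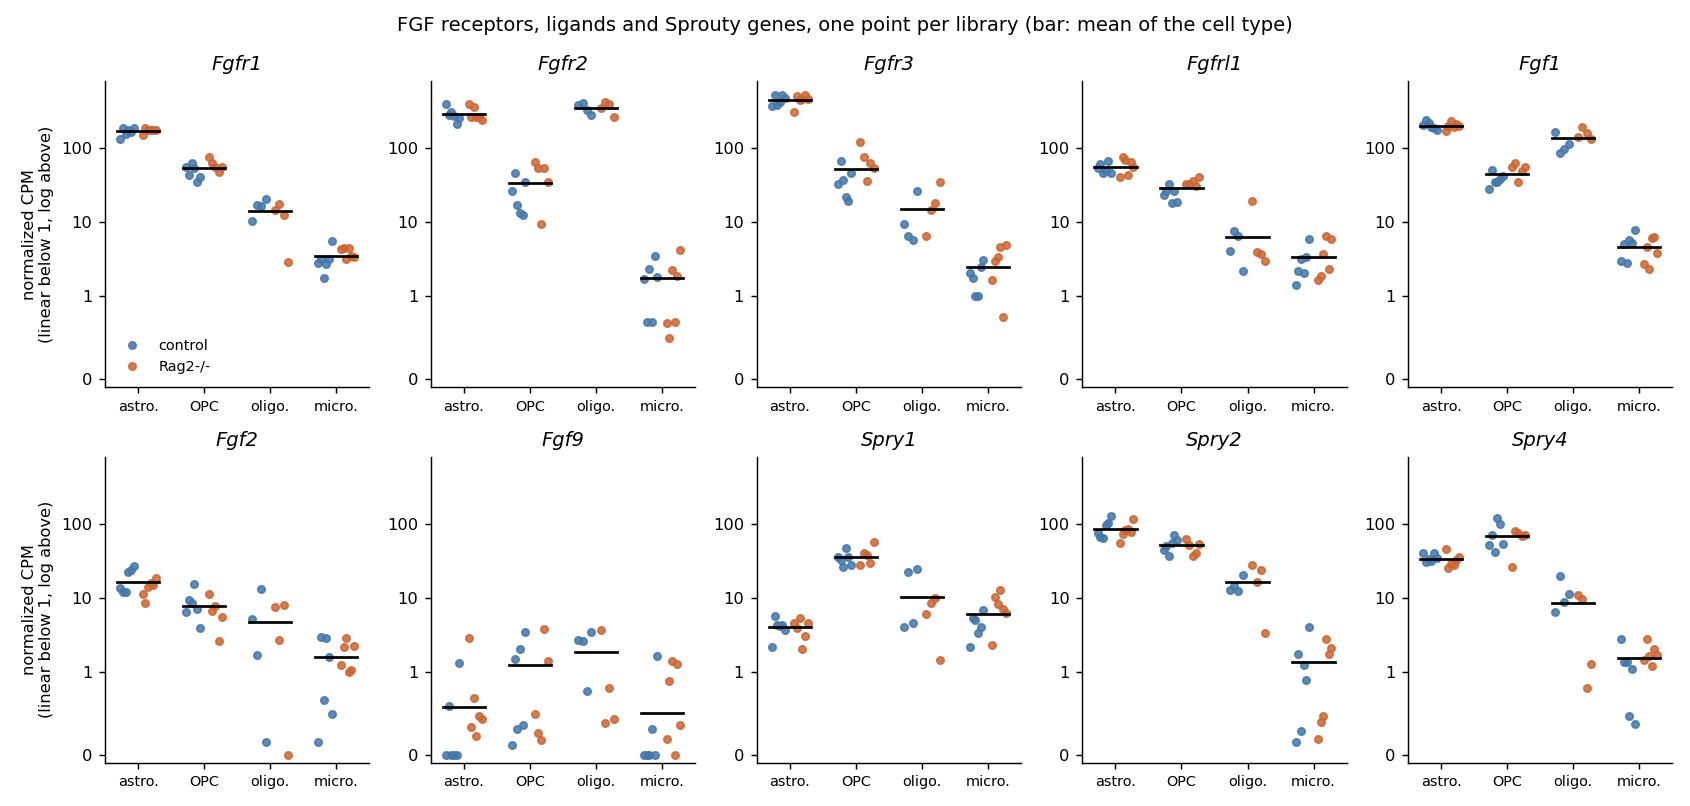
Normalized CPM (y axis, linear below 1 and logarithmic above) of each gene in each of 43 libraries, by cell type (x axis: astrocytes, OPCs, oligodendrocytes, microglia). Points are libraries of control (blue) and Rag2-/- (orange) mice and bars are cell type means. Fgfr3 had its highest mean, 448, in astrocytes, Fgfr2 was high in both astrocytes (mean 291) and oligodendrocytes (mean 350), and Spry1 and Spry4 were highest in OPCs (36.0 and 68.7).

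Fgfr3 was the receptor with the highest counts in astrocytes. Its level ran from 308 to 526 normalized CPM in 12 astrocyte libraries (median 461), from 19.1 to 119 in 11 OPC libraries (median 45.7), from 5.83 to 34.8 in 8 oligodendrocyte libraries (median 11.9) and from 0.745 to 5.00 in 12 microglia libraries (median 2.28). No astrocyte library overlapped a library of another cell type, whereas OPC and oligodendrocyte libraries did overlap. On the log2 scale, the level in astrocytes exceeded that in OPCs by 3.15 ± 0.28 (SE), that in oligodendrocytes by 4.92 ± 0.35 and that in microglia by 7.53 ± 0.33. In OPCs it exceeded that in oligodendrocytes by 1.77 ± 0.30, and edgeR's adjusted p was 6.5e-06. The mean in OPC libraries was 11.5% of the astrocyte mean and that in oligodendrocyte libraries 3.41%, beside medians of 12.6% and 5.72% for the astrocyte markers. Single astrocyte markers ran from 8.28% to 26.2% in OPC libraries and from 3.82% to 15.9% in oligodendrocyte libraries. Whether astrocyte RNA accounts for these levels of Fgfr3 was not tested in this comparison.

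Fgfr2 was shared by astrocytes and oligodendrocytes. Its level was 259 to 421 normalized CPM in oligodendrocyte libraries (median 364), 213 to 398 in astrocyte libraries (median 268), 9.46 to 65.8 in OPC libraries (median 35.3) and 0.494 to 4.20 in microglia libraries (median 1.79). The ranges of astrocytes and oligodendrocytes overlapped, and the log2 difference of -0.27 ± 0.27 (SE, 95% interval -0.82 to 0.28) was not called, with an edgeR adjusted p of 0.43. With total counts as the library size its sign turned, to 0.37, and it was again not called. Astrocytes held 83.2% of the oligodendrocyte mean of Fgfr2, beside a median of 17.95% for the oligodendrocyte markers (12.97% to 26.6% for single markers). OPCs minus oligodendrocytes was -3.40 ± 0.29 on the log2 scale, in the opposite direction to the other receptors, which were higher in OPCs.

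Fgfr1, a kinase receptor of many tissues, stepped down from astrocytes to microglia. Astrocyte libraries held 130 to 188 normalized CPM (median 175), OPC libraries 35.3 to 75.1 (median 55.8), oligodendrocyte libraries 2.89 to 20.6 (median 15.6) and microglia libraries 1.75 to 5.57 (median 3.31). Astrocytes and OPCs did not overlap with each other or with the other cell types, and oligodendrocytes overlapped microglia through the library of Rag2-/- pair 6, which had the 2.89. The log2 steps were 1.67 ± 0.17 from OPCs to astrocytes, 1.94 ± 0.20 from oligodendrocytes to OPCs and 1.96 ± 0.19 from microglia to oligodendrocytes. All 3 steps were called, and also past 2-fold. The mean of OPC libraries was 31.6% of the astrocyte mean, beside a median of 12.6% for the astrocyte markers. Single astrocyte markers ran from 8.28% to 26.2%, and no test was made between these shares.

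Fgfrl1 binds FGF without a kinase domain. It stood at 40.8 to 75.6 normalized CPM in astrocyte libraries (median 54.9), 18.01 to 40.8 in OPC libraries (median 30.4), 2.20 to 19.1 in oligodendrocyte libraries (median 4.04) and 1.42 to 6.60 in microglia libraries (median 2.79). The lowest astrocyte and the highest OPC library were both near 40.8 without overlap, and oligodendrocytes overlapped both OPCs and microglia. The log2 difference between astrocytes and OPCs was 0.96 ± 0.24 (adjusted p 0.000993 by edgeR), and it was not called with total counts as the library size or in Rag2-/- libraries alone.

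Per kilobase of exon, where genes can be set against each other, the make-up of the receptors differed by cell type. Fgfr2 took 88.9% ± 3.92 (SD, n = 8) of the summed normalized CPM per kb of the 4 receptors in oligodendrocytes, with 83.1% in the lowest library. In astrocytes Fgfr3 took 51.8% ± 5.56 (SD, n = 12), Fgfr2 26.5% ± 6.44, Fgfr1 13.6% ± 1.17 and Fgfrl1 8.06% ± 1.20. In OPCs no receptor took over 45.3% in any library, and the means were 32.3% for Fgfr3, 26.1% for Fgfr1, 25.3% for Fgfrl1 and 16.3% for Fgfr2. The 4 receptors summed to 97.6 ± 6.84 normalized CPM per kb in astrocytes, 34.6 ± 4.69 in oligodendrocytes, 17.1 ± 5.82 in OPCs and 1.19 ± 0.477 in microglia. Fgfr4, the remaining kinase receptor, did not exceed 0.158 normalized CPM in any library.

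**Figure D2:**
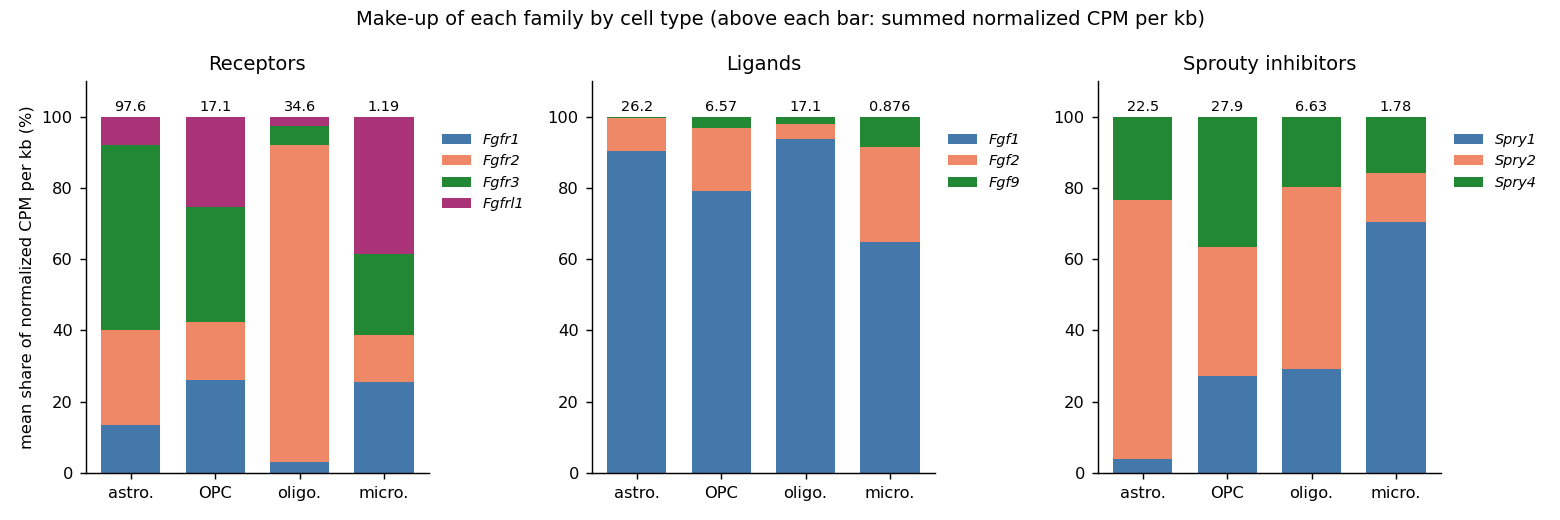
Mean share (y axis, percent) of each gene in the normalized CPM per kb of its family, for the 4 receptors, 3 ligands and 3 Sprouty genes, by cell type (x axis). The number above each bar is the mean summed normalized CPM per kb. Fgfr2 fills 88.9% of the receptor bar in oligodendrocytes, Fgf1 79.1% to 93.7% of the ligand bar in astrocytes, OPCs and oligodendrocytes, and Spry2 72.8% of the Sprouty bar in astrocytes.

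The start regions of the receptors that led in oligodendrocytes and in astrocytes are shown because they differ in CpG content. Promoters were taken from the RefSeq promoter table (built on GRCm38.p6, with 250 bases before and 50 after a gene's start). No promoter of Fgf1, Fgfr1 or Spry4 was examined. The set held 8 promoters of the other 7 of the 10 genes. Each matched the GRCm39 genome at 1 place, which gave the coordinates here. Fgfr2 has its promoter on the minus strand, inside the annotated span of the gene, at chr7:129868489-129868788 and Fgfr3 has the first of its 2 listed promoters on the plus strand at chr5:33878818-33879117. Capitals mark CG pairs, and sequences run 5′ to 3′ on the gene's strand.
Fgfr2: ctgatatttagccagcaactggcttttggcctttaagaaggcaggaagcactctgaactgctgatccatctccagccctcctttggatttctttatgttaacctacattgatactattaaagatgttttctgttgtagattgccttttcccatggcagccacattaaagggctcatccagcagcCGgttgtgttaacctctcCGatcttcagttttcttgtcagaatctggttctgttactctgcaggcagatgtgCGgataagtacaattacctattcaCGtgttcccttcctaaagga
Fgfr3: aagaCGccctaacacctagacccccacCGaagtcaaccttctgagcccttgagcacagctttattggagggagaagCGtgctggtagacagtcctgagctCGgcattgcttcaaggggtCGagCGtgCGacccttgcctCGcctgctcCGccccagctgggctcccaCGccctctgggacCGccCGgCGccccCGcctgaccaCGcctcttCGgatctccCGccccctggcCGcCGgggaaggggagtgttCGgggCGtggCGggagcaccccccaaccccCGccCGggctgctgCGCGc
Fgfr2 had 4 CG pairs and 43.7% G and C bases, and Fgfr3 had 26 CG pairs and 69.7%. Over all 32851 promoters of the table the median was 7 CG pairs and 52.7% G and C bases, and 31.4% held fewer CG pairs than Fgfr2 against 83.1% for Fgfr3. On both strands together, the GC box GGGCGG occurred 4 times in this promoter of Fgfr3 and was not found in that of Fgfr2. It was in 5 of the 8 promoters examined (those of Fgf2, Fgfrl1 and Spry1 and both of Fgfr3) and in 35.7% of all promoters. Apart from those of Fgfr2 and Fgf9, the promoters examined held 24 to 37 CG pairs. Here and below, the shares of all promoters were not matched for CG content.

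Among the 3 ligands, Fgf1 had the highest mean level in every cell type. Fgf1 encodes acidic FGF, which lacks a signal peptide and binds all FGF receptors. It stood at 167 to 240 normalized CPM in astrocyte libraries (median 197), 84.9 to 194 in oligodendrocyte libraries (median 137), 28.4 to 62.7 in OPC libraries (median 42.1) and 2.36 to 7.78 in microglia libraries (median 4.89). Astrocytes and oligodendrocytes overlapped with each other but not with OPCs, and OPCs did not overlap with microglia. OPCs minus oligodendrocytes was -1.63 ± 0.17 on the log2 scale, so the level was higher in oligodendrocytes. Between astrocytes and oligodendrocytes the log2 difference was 0.56 ± 0.17 (adjusted p 0.00453), which was not called in Rag2-/- libraries alone (adjusted p 0.113). Per kb, Fgf1 made up 90.5% ± 3.41 of the 3 ligands in astrocytes, 93.7% ± 4.58 in oligodendrocytes, 79.1% ± 7.06 in OPCs and 64.9% ± 16.7 in microglia (SD over 12, 8, 11 and 12 libraries). In microglia the 3 ligands summed to only 0.876 normalized CPM per kb, and the share of Fgf1 was 29.3% in the lowest library.

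Fgf2 encodes basic FGF and was low throughout. Astrocyte libraries held 8.64 to 26.8 normalized CPM (median 14.4), OPC libraries 2.59 to 15.2 (median 7.10), oligodendrocyte libraries 0 to 13.01 (median 3.98) and microglia libraries 0.158 to 2.96 (median 1.43). Every pair of neighbouring cell types overlapped. Astrocytes exceeded OPCs by 1.06 ± 0.41 on the log2 scale with an adjusted p of 0.0301, a call that was lost within each genotype (adjusted p 0.117 in control and 0.165 in Rag2-/- libraries), with total counts as the library size (0.66, adjusted p 0.175) and without the mouse of control pair 5 or of Rag2-/- pair 4 (adjusted p 0.057 and 0.0705). OPCs and oligodendrocytes differed by 0.73 ± 0.47 (95% interval -0.21 to 1.67), which was not called, whereas with total counts the difference was 1.79 and was called (adjusted p 0.00137). Of the exonic bases of Fgf2, 45.0% overlap genes on the other strand, mainly Nudt6, the FGF2 antisense gene. Such overlap was 19.05% for Spry1, 13.1% for Fgfr3 and 0.979% for Fgfr1, and 2.77% of Fgfr2 overlaps Ctbp2 on the same strand. The strand setting of the counting is not given in the sources used here, so reads of the overlapping genes cannot be told apart.

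Fgf9, a ligand best known from neurons, was at or near the floor. Its counts ran from 0 to 25 in astrocyte libraries, 0 to 27 in microglia libraries, 2 to 51 in OPC libraries and 3 to 34 in oligodendrocyte libraries. In all, 6 of 12 astrocyte and 6 of 12 microglia libraries had 3 counts or fewer. The means were 1.86 ± 1.40 normalized CPM in oligodendrocytes, 1.27 ± 1.33 in OPCs, 0.577 ± 0.818 for astrocyte libraries and 0.509 ± 0.629 for microglia (SD), with overlap between all cell types. No comparison of Fgf9 was called, although with the mouse as a block the log2 differences of astrocytes minus oligodendrocytes (-2.67, adjusted p 0.0196) and of oligodendrocytes minus microglia (2.68, adjusted p 0.0165) passed. Both comparisons also passed without the mouse of control pair 6 (adjusted p 0.0424 and 0.0183), and that with microglia passed without the mouse of Rag2-/- pair 3 or 5 (adjusted p 0.0375 and 0.0357).

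The Sprouty genes divided between OPCs and astrocytes. Spry1 stood at 26.1 to 56.0 normalized CPM in OPC libraries (median 35.6), 1.44 to 24.8 in oligodendrocyte libraries (median 7.36), 2.21 to 12.7 in microglia libraries (median 5.83) and 2.03 to 5.76 in astrocyte libraries (median 4.20). No OPC library overlapped a library of another cell type, and the other 3 cell types overlapped with each other. The level in OPCs exceeded that in oligodendrocytes by 1.81 ± 0.35 and that in microglia by 2.56 ± 0.30 on the log2 scale, and astrocytes minus OPCs was -3.17 ± 0.31. The call between oligodendrocytes and microglia (0.75 ± 0.33, adjusted p 0.0421) passed in only 8 of 22 alternatives. Among the others, it was lost with the mouse as a block (adjusted p 0.0633) and reversed sign with total counts as the library size (-0.23). Spry1 thus set OPCs and astrocytes apart in the direction opposite to the receptors, all 4 of which were higher in astrocytes.

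Spry4 was also highest in OPCs. Its level was 26.4 to 119 normalized CPM in OPC libraries (median 70.2), 25.04 to 46.3 in astrocyte libraries (median 32.7), 0.813 to 19.5 in oligodendrocyte libraries (median 9.29) and 0.367 to 2.84 in microglia libraries (median 1.42). The library of Rag2-/- pair 1, at 26.4, and that of control pair 3, at 41.1, lay within the astrocyte range, and the other 9 OPC libraries lay above it. Astrocytes minus OPCs was -1.01 ± 0.28 on the log2 scale (adjusted p 0.00241), and OPCs exceeded oligodendrocytes by 3.00 ± 0.35. In Rag2-/- libraries alone the first of these was not called (adjusted p 0.108).

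Spry2 was highest in astrocytes. Astrocyte libraries held 54.9 to 129 normalized CPM (median 80.2), OPC libraries 36.3 to 69.6 (median 51.7), oligodendrocyte libraries 3.32 to 27.4 (median 15.3) and microglia libraries 0.158 to 4.10 (median 1.07). Astrocytes overlapped OPCs, and oligodendrocytes and microglia met only through the library of Rag2-/- pair 6, at 3.32. Astrocytes exceeded OPCs by 0.74 ± 0.27 on the log2 scale (adjusted p 0.0238), a call that was lost with total counts as the library size and within each genotype, and OPCs exceeded oligodendrocytes by 1.63 ± 0.32. Per kb, Spry2 made up 72.8% ± 6.34 (SD, n = 12) of the Sprouty genes in astrocytes, the 3 genes were nearer to each other in OPCs (27.2% to 36.5% as means), and Spry1 made up 70.4% ± 9.39 (SD, n = 12) in microglia. The 3 genes summed to 27.9 ± 6.04 normalized CPM per kb in OPCs, 22.5 ± 4.24 in astrocytes and 6.63 ± 3.26 in oligodendrocytes. In microglia the sum was only 1.78 ± 0.783, so the share of Spry1 there rests on low levels.

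The start regions of Spry1, which was higher in OPCs than in astrocytes, and Spry2, which was higher in astrocytes, are printed for comparison in the same way. Spry1 has its promoter on the plus strand at chr3:37693846-37694145 and Spry2 on the minus strand at chr14:106134204-106134503 of GRCm39.
Spry1: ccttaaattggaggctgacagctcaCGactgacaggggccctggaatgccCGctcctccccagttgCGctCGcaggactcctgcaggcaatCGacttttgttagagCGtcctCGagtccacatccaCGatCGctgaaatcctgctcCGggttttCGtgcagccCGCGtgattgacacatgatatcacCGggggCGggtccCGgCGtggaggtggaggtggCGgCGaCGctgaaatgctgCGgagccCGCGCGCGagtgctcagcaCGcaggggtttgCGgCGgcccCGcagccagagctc
Spry2: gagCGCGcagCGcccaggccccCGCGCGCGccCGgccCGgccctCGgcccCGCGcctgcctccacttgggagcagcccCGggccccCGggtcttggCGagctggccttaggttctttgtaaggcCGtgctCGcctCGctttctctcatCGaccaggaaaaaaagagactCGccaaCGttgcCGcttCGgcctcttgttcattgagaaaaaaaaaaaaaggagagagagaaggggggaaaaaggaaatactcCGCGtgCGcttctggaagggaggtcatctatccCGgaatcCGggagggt
Both were rich in CG pairs, with 29 in Spry1 and 28 in Spry2. The GC box GGGCGG occurred in Spry1 and not in Spry2, while CCGGAA, the core of sites bound by ETS factors such as Etv4 and Etv5, occurred once in Spry2 and not in Spry1. That core was in 2 of the 8 promoters and in 14.9% of all promoters, and TATAAA was in none of the 8 and in 13.6% of all. Of 7 further motifs searched on both strands, TGACTCA and TGACGTCA were in none of the 8 promoters (5.2% and 1.79% of all). CCAAT was in 3 of them (37.4% of all), CAGCTG in 1 (16.3%), ACAAAG in 2 (18.7%), TTGGC in 4 (46.7%), and GCGGGGGCG, which overlaps the GC box, in 3 (2.91%).

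Of 56 other genes of the pathway, 36 passed the filter of the joint fit. Between astrocytes and OPCs, 7 of them were called higher in astrocytes and 12 lower, while 18.1% and 26.1% of all genes were. Between astrocytes and oligodendrocytes the counts were 10 and 18, with 22.7% and 28.9% of all genes, and between OPCs and oligodendrocytes 8 and 12, with 22.7% and 17.7% of all genes. All 18 adaptors and kinases of the ERK cascade were tested, and 10 of them were called lower in OPCs than in oligodendrocytes and 0 higher. Of the 7 transcriptional targets, 5 were called higher in OPCs than in oligodendrocytes and 1 lower, against the same shares of all genes.

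Among the named targets and inhibitors, Il17rd (the membrane inhibitor Sef) and Etv4 were nearly limited to OPCs and astrocytes. Il17rd had means of 12.7 ± 6.02 normalized CPM in astrocytes, 11.4 ± 3.46 in OPCs, 0.604 ± 0.498 in oligodendrocytes and 0.339 ± 0.315 in microglia (SD). Etv4, an ETS transcription factor induced by FGF, had 17.2 ± 4.74 in OPCs, 12.0 ± 4.62 in astrocytes, 1.81 ± 1.64 in oligodendrocytes and 0.741 ± 1.46 in microglia. OPCs exceeded oligodendrocytes by 4.20 ± 0.48 for Il17rd and 3.33 ± 0.61 for Etv4 on the log2 scale, and both were called. Astrocytes and OPCs were not called apart in either gene. Etv5, the close relative of Etv4, was highest in OPCs at 115 ± 18.4 and was present in all cell types, at 83.8 ± 11.4 in astrocytes, 49.8 ± 10.5 in microglia and 42.6 ± 22.3 in oligodendrocytes.

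The adaptor Frs2 and the ERK inhibitors Spred1, Spred2 and Dusp6 were spread over all cell types. Frs2 had 91.6 ± 24.5 normalized CPM in oligodendrocytes and 55.1 to 56.1 as means of the other cell types, with log2 differences of oligodendrocytes from astrocytes, OPCs and microglia that were all called. Spred1 ran from a mean of 129 in OPCs to 169 in astrocytes, and Spred2 from 51.3 in oligodendrocytes to 69.5 in astrocytes. Dusp6, the cytoplasmic phosphatase of ERK, had 25.1 ± 3.69 in astrocytes, 21.7 ± 5.44 in OPCs, 18.6 ± 3.24 in microglia and 16.7 ± 14.4 in oligodendrocytes, and of its 6 comparisons only that of astrocytes with oligodendrocytes was called (log2 difference 0.60 ± 0.25, adjusted p 0.0378). Microglia, with the lowest receptor levels, held Frs2, Spred1, Spred2 and Dusp6 at means within the span of the other cell types.

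**Figure D3:**
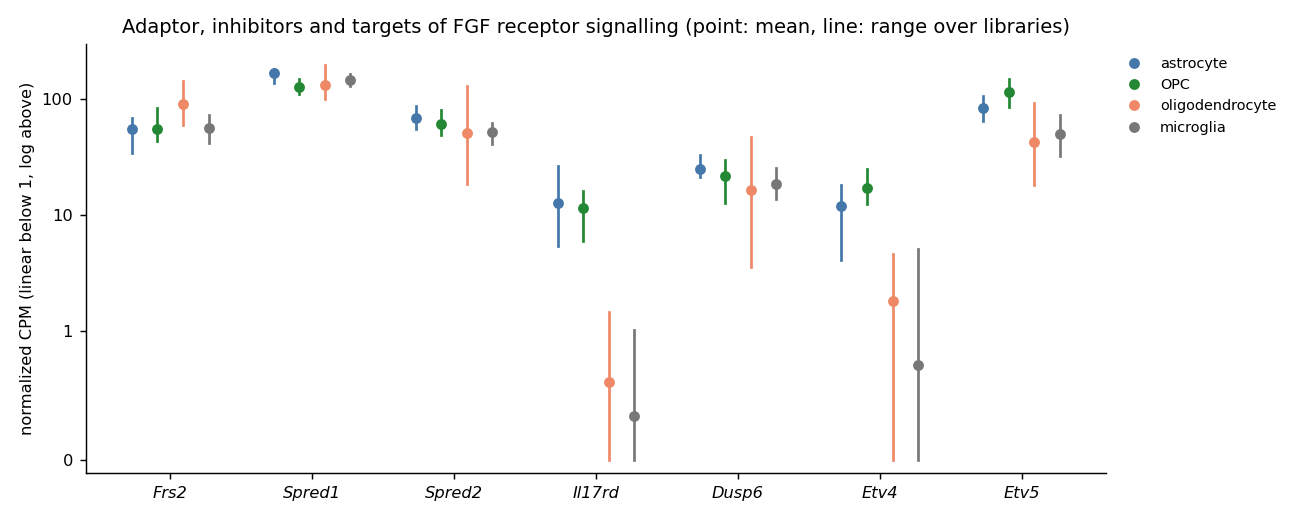
Normalized CPM (y axis, linear below 1 and logarithmic above) of 7 other genes of the pathway (x axis) in the 4 cell types. Points are means and lines run from the lowest to the highest library. Il17rd and Etv4 stood at means of 11.4 to 17.2 in astrocytes and OPCs and under 2 in oligodendrocytes and microglia, while Spred1 lay between 129 and 169 in all cell types.

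The genes whose levels were most like each member were found by Pearson's r of log2 normalized CPM over the 43 libraries, among 19122 genes. These values describe differences between 4 cell types, whose libraries share lane and mice, and are not independent points. Fgfr3 was most like Cldn10 (r 0.986), Tspan7 (0.984) and Aqp4 (0.983), of which Aqp4, the water channel of astrocyte endfeet, is one of the 8 astrocyte markers. Fgfr2 was most like Car2 (0.982), Clmn and Csrp1, Fgf1 most like Gnao1 (0.986), Usp54 and Clmn, and Fgfr1 was like Vegfa (0.976) and Farp1. Clmn stood on the lists of both Fgfr2 and Fgf1, and these members had an r of 0.960 with each other. Spry2 was most like Cyp2j9 (0.983), Mmd2 and Ncan, Spry4 most like Tmem100 (0.941), Klhl5 and Ednrb, Fgfrl1 most like Pou3f4 (0.951), Carmil1 and Cfap97d2, and Spry1 most like Sdc3 (0.876), Col18a1 and Lbh. For Fgf2 the highest was Jkamp at 0.847, and for Fgf9, near the floor, Dync1i1 at 0.610.

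None of the 10 genes was called between Rag2-/- and control mice in any cell type. Sex and genotype were the terms of a separate fit for each cell type. With edgeR, 0 of 9 members tested were called in astrocytes (0.00679% of all genes), 0 of 10 in OPCs (0.00592%), 0 of 10 in oligodendrocytes (0%) and 0 of 9 in microglia (0.00667%), where Fgf9 failed the filter on low counts in astrocytes and microglia. DESeq2 also called 0 members in each cell type, where it called 0.003% of all genes in astrocytes, 0.0239% in OPCs, 0.75% in oligodendrocytes and 0.00916% in microglia. At an unadjusted p under 0.05, edgeR gave 0 members in astrocytes (2.87% of all genes), 3 in OPCs (4.02%), 0 in oligodendrocytes (3.38%) and 1 in microglia (2.91%). The genotype effect did not pass as different between cell types for any member (0 of 10 by the interaction test, 0 by DESeq2, 0 at an unadjusted p under 0.05, and 0.364% of all genes called). A p that misses the threshold does not show equal levels, and the intervals differ in width.

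**Figure D4:**
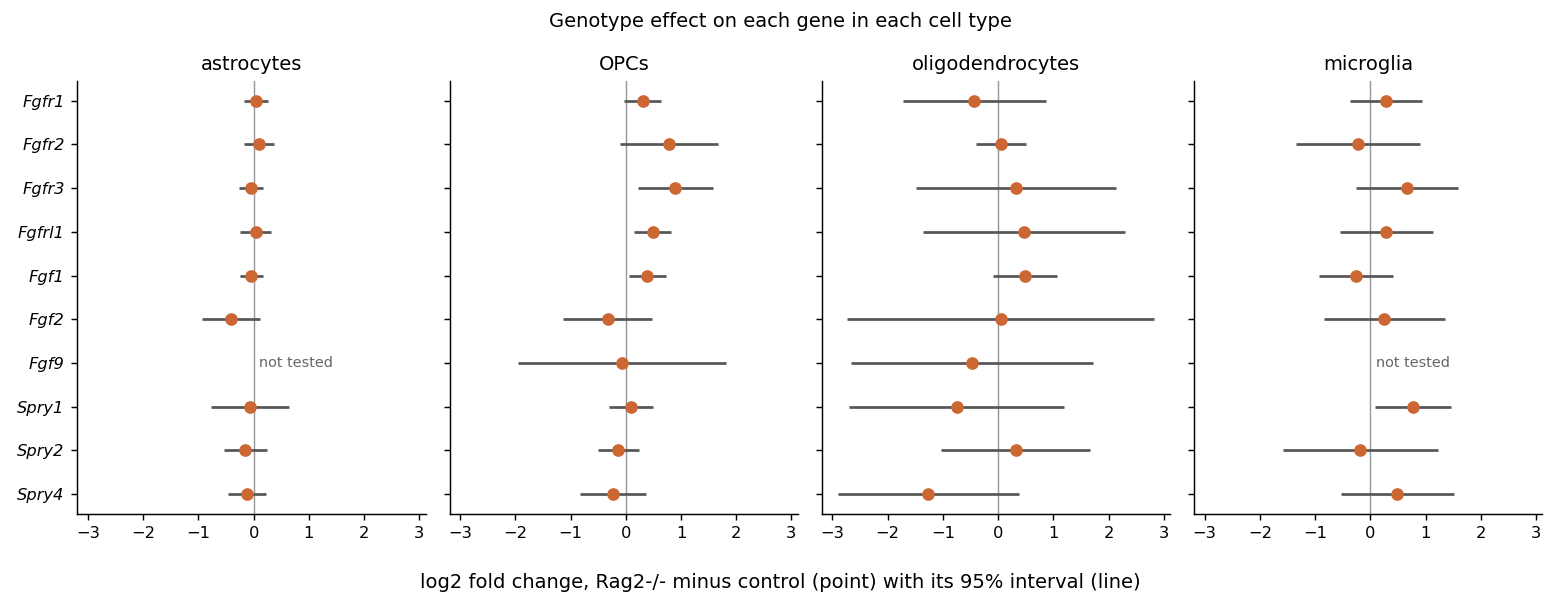
Log2 fold change of Rag2-/- minus control (x axis, points) with 95% intervals (lines) for each gene (y axis) in each cell type, by edgeR. The intervals of Fgfr1, Fgfr2, Fgfr3, Fgfrl1 and Fgf1 in astrocytes stay within 0.37 of 0, those of Fgfr3, Fgfrl1 and Fgf1 in OPCs lie above 0 before adjustment, and those of Fgfr3, Fgfrl1, Fgf2, Fgf9, Spry1 and Spry4 in oligodendrocytes span over 3 log2 units.

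Astrocytes gave the narrowest intervals for 7 of the 9 members tested there, the exceptions being Spry1 and Spry2. The log2 difference of Fgfr3 there was -0.05 ± 0.10 (SE, 95% interval -0.27 to 0.16), that of Fgfr1 0.05 ± 0.10 (-0.17 to 0.27), that of Fgfr2 0.10 ± 0.13 (-0.17 to 0.37) and that of Fgf1 -0.04 ± 0.10 (-0.25 to 0.17). Fgfr3 stood at 371, 526, 384, 413, 514 and 472 normalized CPM in control pairs 1 to 6 and at 308, 508, 439, 458, 521 and 465 in the Rag2-/- mice of the same pairs, so the groups lay over one another. For Fgf2 the difference was -0.42 ± 0.25 (-0.94 to 0.11).

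In OPCs, Fgfr3, Fgfrl1 and Fgf1 had an unadjusted p under 0.05, with higher values in Rag2-/- mice, and none passed the adjusted test. Fgfr3 stood at 32.5, 66.0, 37.6, 21.7, 19.1 and 45.7 normalized CPM in control pairs 1 to 6 and at 119, 75.0, 36.0, 61.9 and 54.4 in Rag2-/- pairs 1, 2, 3, 4 and 6. The groups overlapped, with the Rag2-/- value above its littermate's in 4 of 5 pairs, and the log2 difference was 0.90 ± 0.32 (unadjusted p 0.0131, adjusted p 1.00 by edgeR). Fgfr2 stood at 26.4, 46.1, 17.3, 13.2, 12.6 and 35.3 in controls and at 65.8, 54.3, 9.46, 53.6 and 35.4 in Rag2-/- mice, a log2 difference of 0.78 ± 0.42 (unadjusted p 0.0785, adjusted p 1.00). Fgfrl1 stood at 23.5, 26.4, 32.8, 18.01, 26.1 and 18.6 against 32.6, 33.1, 36.1, 30.4 and 40.8, so that all 5 Rag2-/- libraries lay above 5 of the 6 controls, and only control pair 3 fell within their range. Its log2 difference was 0.49 ± 0.16 (unadjusted p 0.00713, adjusted p 1.00), and that of Fgf1 was 0.39 ± 0.16 (unadjusted p 0.024, adjusted p 1.00).

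Astrocyte markers moved with Fgfr3 and Fgfr2 in the same libraries. The 8 astrocyte markers summed to 2357 to 3372 normalized CPM in control OPC libraries and to 2688 to 6241 in Rag2-/- OPC libraries, with no marker at 0. The library of Rag2-/- pair 1 had the highest sum, the highest Fgfr3 and the highest Fgfr2, and the library of control pair 5 had the lowest sum and the lowest Fgfr3. The mean log2 level of these markers was then added as a term, a choice made after seeing the data. The genotype difference was then 0.28 for Fgfr3, -0.15 for Fgfr2 and 0.16 for Fgf1, while it was 0.54 for Fgfrl1. The astrocyte markers stood at a mean of 11.05% of their own level in control and 15.5% in Rag2-/- OPC libraries. The term and the genotype were thus partly tied, so astrocyte RNA and a genotype effect on astrocyte genes cannot be told apart. The marker term itself was called for Fgfr3 (1.31 ± 0.18, adjusted p 0.00487 by edgeR) and Fgfr2 (1.84 ± 0.27, adjusted p 0.00618) and for no other member, while 0.634% of all genes were called. The 7 oligodendrocyte markers summed to 284 to 1074 normalized CPM in control and 337 to 1196 in Rag2-/- OPC libraries. They stood at 870 to 1196 in control pairs 2 and 6 and Rag2-/- pairs 2, 4 and 6, whose Fgfr2 ran from 35.3 to 54.3, and at 337 to 453 in the 4 libraries with the lowest Fgfr2, while the library with the highest Fgfr2, Rag2-/- pair 1, had 353. The markers of endothelial cells summed to 26.97 to 68.0 in control and 32.8 to 116 in Rag2-/- OPC libraries, those of mural cells and fibroblasts to 115 to 301 and 134 to 387, and the part of these 3 marker lists in the result was not tested.

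The filter on low counts decided 2 calls in OPCs. With no filter, edgeR called Fgfr3 (log2 difference 0.90, adjusted p 2.55e-05) and Fgfr2 (0.78, adjusted p 0.00657) and 0.266% of all genes. With the marker term and no filter neither was called, at 0.29 for Fgfr3 and -0.14 for Fgfr2. With no filter and without the library of Rag2-/- pair 1 neither was called, at 0.54 and 0.50.

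**Figure D5:**
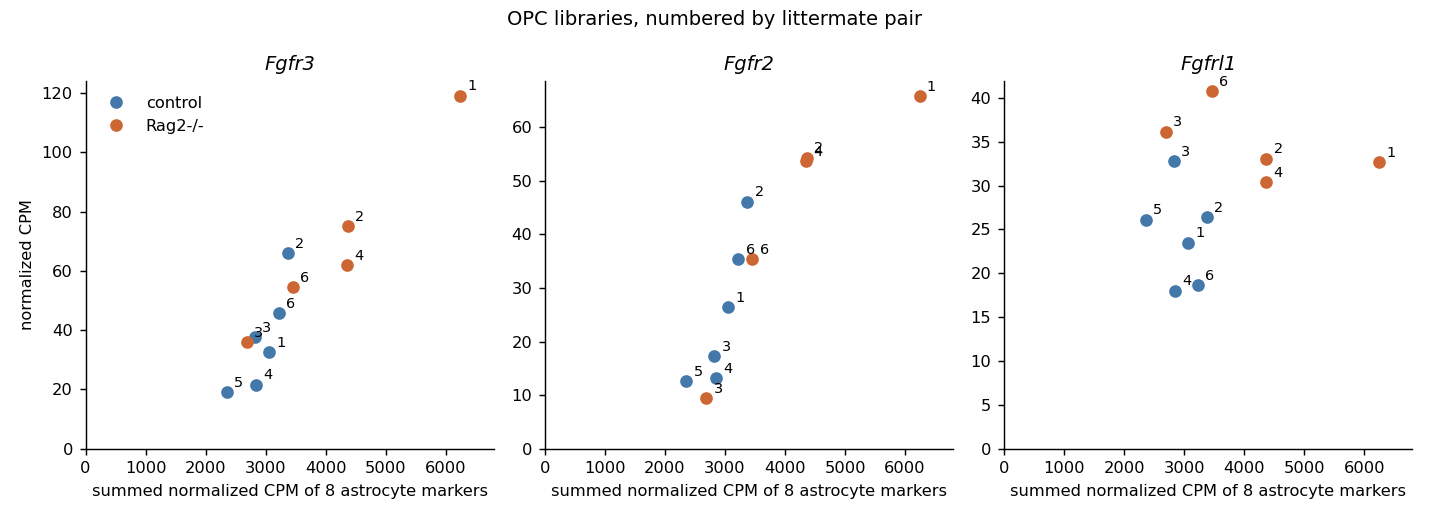
Normalized CPM (y axis) of Fgfr3, Fgfr2 and Fgfrl1 in the 11 OPC libraries against the summed normalized CPM of 8 astrocyte markers (x axis). Points are libraries of control (blue) and Rag2-/- (orange) mice, numbered by littermate pair. Fgfr3 and Fgfr2 were highest, at 119 and 65.8, in the library with the highest marker sum (6241, Rag2-/- pair 1), while Fgfrl1 was highest, at 40.8, in a library with a marker sum of 3457.

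Oligodendrocyte and microglia libraries gave wide intervals for most members. In oligodendrocytes Fgfr2, at 381, 400, 328 and 276 normalized CPM in control pairs 1, 3, 5 and 6 and 348, 421, 391 and 259 in Rag2-/- mice, differed by 0.06 ± 0.21 on the log2 scale (95% interval -0.40 to 0.51). Fgf1 stood at 167, 84.9, 95.9 and 115 against 141, 194, 161 and 133, a difference of 0.48 ± 0.27 (-0.10 to 1.07). Spry4 stood at 6.40, 19.5, 8.93 and 11.5 against 11.1, 9.65, 0.813 and 1.30, a difference of -1.27 ± 0.75 (-2.91 to 0.38), with 2 Rag2-/- libraries below every control. Leaving out 1 library gave differences from -1.62 to -0.27, the last without control pair 5. The 2 low Rag2-/- libraries, of pairs 5 and 6, were the only female ones of their group. Control pair 5 was the only female control. The sex term for Spry4, female minus male, was -1.77 ± 0.82 (unadjusted p 0.0535, adjusted p 0.604 by edgeR). In microglia Spry1 ran from 2.21 to 6.80 over the 6 control libraries, with a median of 4.57, and from 2.32 to 12.7 over the 6 Rag2-/- libraries, with a median of 7.62. The groups overlapped, with a difference of 0.78 ± 0.33 (unadjusted p 0.029, adjusted p 0.999), which was 0.48 without the library of Rag2-/- pair 4.

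Sex gave no call among the members either. By edgeR, 0 of 9 members were called in astrocytes (0.0407% of all genes), 0 of 10 in OPCs (0.0296%), 0 of 10 in oligodendrocytes (0.0362%) and 0 of 9 in microglia (0.0467%), and at an unadjusted p under 0.05 the counts were 3, 1, 0 and 0, beside 6.73%, 4.3%, 8.23% and 3.92% of all genes. In astrocytes, Fgfr3 was 0.33 ± 0.10 higher in females on the log2 scale (unadjusted p 0.00516), Fgfrl1 0.37 ± 0.14 higher and Fgfr2 -0.37 ± 0.13, all with an adjusted p of 0.715. The astrocyte libraries of male pair 1 had the highest Fgfr2 of their groups, at 398 in the control and 391 in the Rag2-/- mouse, and the lowest Fgfr3, at 371 and 308. The oligodendrocyte markers stood at 26.8% of their own level in this control library, the highest of the control astrocyte libraries. In the Rag2-/- library they stood at 19.3%, and among Rag2-/- astrocyte libraries only pair 3, at 28.4%, was higher. The span over astrocyte libraries was 9.28% to 28.4%, and the part of these markers in the Fgfr2 levels was not tested.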

How the data were processed

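RNA of immunopanned glia was sequenced as paired 50-base reads. The authors aligned reads with STAR 2.7.8a to GRCm39 and deposited HTSeq counts per gene, with no normalization. The strand setting is not given in the sources used here. The 5 unassigned sums, 33.5% to 52.0% of reads, were left out. The 10 genes, the marker lists and the pathway list were chosen with earlier results of these data known. Other named genes were the 3 with the highest r to each member, of which 1 is not reported here, and a short list from the pathway list.

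Counts were tested with edgeR 4.0.16 (R 4.3.3): TMM factors, filterByExpr (minimum count 10, total 15) and the quasi-likelihood test, with sex and genotype as terms, per cell type for genotype and sex and over 43 libraries for cell types and for genotype by cell type. A simulation of the genotype test in OPCs (16427 genes) recovered 43.8% of 96 genes changed by log2 1 and 79.6% of 98 changed by log2 2. That of astrocytes against OPCs (18463 genes) recovered 42.3% and 76.8%. Changing so many genes at once makes the adjustment milder than in the OPC genotype test of the data, where 1 gene was called. A single changed gene could be recovered less often there. DESeq2 1.42.0, other scalings and filters, blocks and left-out libraries were alternatives. Pair numbers mark littermates. Deviations from group means correlated at 0.0865 to 0.135 (mean r by cell type) within pairs and at -0.0359 to -0.0176 between pairs. Each mouse gave several cell types, so cell type fits were repeated with the mouse as a block. Levels per kb used union exons of the GENCODE annotation, and intervals cover the spread between these libraries.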

Additional observations from a re-analysis of the deposited data

Results flagged for a closer look

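In 6 of 80 groups of 4 to 6 libraries, 1 library stood apart from the others by Dixon's test, where chance gives about 1 in 20. Fgfr3 in control oligodendrocytes was at 26.5 normalized CPM in pair 6 and at 5.83 to 9.35 in the other 3 libraries. The astrocyte markers in that library summed to 3930 normalized CPM against 1497 to 2323 in the other control libraries, and their part in the result was not tested. Fgfrl1 in Rag2-/- oligodendrocytes was at 19.1 in pair 1 (175 counts) and at 3.03 to 3.99 in the others. Without the mouse of Rag2-/- pair 1, Fgfrl1 was no longer called between oligodendrocytes and microglia (log2 difference 0.36, adjusted p 0.212 by edgeR).

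Spry4 in Rag2-/- OPCs was at 26.4 in pair 1 and at 67.5 to 80.9 in the others. This was the OPC library with the highest astrocyte marker sum, 6241 normalized CPM. Fgf9 was set apart in 3 groups on few counts. It was at 2.87 in Rag2-/- astrocytes of pair 1 (25 counts) against 0.225 to 0.683, at 3.70 in Rag2-/- oligodendrocytes of pair 1 (34 counts) against 0.386 to 0.813, and at 1.65 in control microglia of pair 6 (27 counts) against 0 to 0.309.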

How the results depend on the processing

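The number of members called between cell types was within 1.5 times under the alternatives run, with these exceptions. Against a fold over 2, 5 of 10 were called between astrocytes and OPCs and 5 between astrocytes and oligodendrocytes, and in Rag2-/- libraries alone 5 were called between astrocytes and OPCs. The stricter test and the smaller number of libraries are part of how these were built. With each mouse left out in turn the counts were 8 to 9 for astrocytes against OPCs, oligodendrocytes and microglia, 8 for OPCs against oligodendrocytes, 9 for OPCs against microglia and 8 to 10 for oligodendrocytes against microglia. With the mouse as a replicate block they were 9, 9, 8, 8, 9 and 9, and that block changed no calls of members other than those of Fgf9 and Spry1 given above.

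Between oligodendrocytes and microglia, total counts turned Fgfrl1 to -0.074 and Spry1 to -0.23, and Rag2-/- libraries alone turned Spry1 to -0.37. With TMM these differences were 0.88 for Fgfrl1 and 0.75 for Spry1, and total counts shifted the levels in this comparison by -0.981 log2 units. In Rag2-/- libraries the mean of Spry1 was 6.56 normalized CPM in oligodendrocytes and 7.79 in microglia, against 13.9 and 4.47 in controls. The cause of the turn in Rag2-/- libraries was not tested. For genotype, with the littermate pair as a replicate block 0 members were called in each cell type, as for sex and for genotype by cell type, and leaving out any 1 library also gave 0. With no filter 2 were called in OPCs, and the astrocyte marker term turned Fgfr2 there to -0.15, or to -0.14 with no filter. For sex in OPCs the littermate block turned Fgfr1 to 0.40 and Spry2 to -0.22, where only pair 6 differs in sex.

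Over all genes, genotype calls went from 1 to 90 with no filter and 5 by DESeq2 in OPCs, from 0 to 14 and 203 in oligodendrocytes, from 1 to 30 and 1 in astrocytes, and from 1 to 9 and 3 in microglia. Calls of genotype by cell type went from 70 to 669 with no filter, 37 with the littermate block and 396 by DESeq2, and with 1 mouse left out they ran from 14 (control pair 5) to 105 (control pair 1). Depth limits Fgf9, Fgf2 in oligodendrocytes and microglia, and Spry2 in microglia, where 2 of 12 libraries had 3 counts or fewer.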

Other observations

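Of 15 further ligands that bind FGF receptors, 0 passed the filter on low counts in the joint fit. The highest mean, chosen after the values were seen, was that of Fgf18 in oligodendrocytes, at 5.30 ± 14.9 normalized CPM (SD, n = 8). A spread this far above the mean requires that nearly all of it came from a single library, so it does not describe the cell type.

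The 4 FGF homologous factors, intracellular relatives of the FGFs that bind sodium channels and not FGF receptors, were all measured and were named after their values were seen. By edgeR, all 4 were called higher in each other cell type than in microglia, as were 38.2% of all genes in astrocytes, 40.3% in OPCs and 36.6% in oligodendrocytes. Fgf11 was highest in OPCs, at 36.8 ± 8.17 normalized CPM (SD, n = 11), against 16.8 ± 5.34 in astrocytes and 15.6 ± 8.64 in oligodendrocytes. Fgf12 had 43.8 ± 28.5 in oligodendrocytes and 29.8 ± 4.08 in OPCs, while astrocytes held 11.02 ± 2.65 and microglia 1.09 ± 0.574. Fgf13 had 50.5 ± 42.1 in oligodendrocytes and 18.7 ± 3.94 in OPCs. Markers of neurons, which also express these factors, summed to means of 1713 normalized CPM in oligodendrocyte libraries, 442.5 in OPC, 198.9 in astrocyte and 77.3 in microglia libraries, and their part in these levels was not tested.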
